A study of Mus musculus with 30 samples.

Results

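The mitochondrial ribosomal protein genes were taken as the protein-coding genes whose symbol is *Mrpl* or *Mrps* with a number and at most 1 letter. The rule found 78 genes, 49 named for the large subunit (*Mrpl*) and 29 named for the small subunit (*Mrps*), among 56941 genes in the count tables, of which 21749 were annotated as protein-coding. They were measured by QuantSeq 3′ mRNA-Seq, which reads the end of polyadenylated transcripts, in mHypoA-2/12 (Clu177), an immortalized neuronal line from the adult mouse hypothalamus. Cells received vehicle (0.1% DMSO) or cannabidiol (CBD), a non-intoxicating cannabinoid of Cannabis, at 0.325 µM, 0.75 µM, 1.5 µM or 3 µM. They were harvested after 6 h or 24 h, with 3 libraries for each of the 10 groups and 30 libraries (A1 to A30) in all. All groups share this 1 line, and nothing in the labels says that the 3 libraries of a group came from separate cultures, so the p-values measure the spread between these libraries, which may be technical.

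The mitochondrial ribosome translates the few proteins encoded by mitochondrial DNA, all of them subunits of the respiratory chain or of ATP synthase. Its rRNAs, *mt-Rnr1* in the small subunit and *mt-Rnr2* in the large subunit, come from mitochondrial DNA, while every one of its proteins is encoded in the nucleus, made in the cytosol and imported. Many nuclear genes for mitochondrial proteins carry promoter sites for the factors NRF1, GABP (an ETS factor) and YY1.

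Promoters are shown for the gene with the highest level, *Mrps6*, and for 3 genes whose level differed between vehicle at 24 h and vehicle at 6 h, *Mrpl14* (higher at 24 h), *Mrpl12* and *Mrps26* (both lower). Each runs from 250 bases before to 50 bases after the start of the gene, as given by RefSeq on build GRCm38.p6, and all 4 lie on the + strand. Capitals mark matches on either strand to GCGCANGCG (NRF1), CCGGAAG (ETS) or AAGATGGC (YY1). The last letters of the ETS word can also be the first of the YY1 word.
*Mrps6* (chr16:92058086-92058385): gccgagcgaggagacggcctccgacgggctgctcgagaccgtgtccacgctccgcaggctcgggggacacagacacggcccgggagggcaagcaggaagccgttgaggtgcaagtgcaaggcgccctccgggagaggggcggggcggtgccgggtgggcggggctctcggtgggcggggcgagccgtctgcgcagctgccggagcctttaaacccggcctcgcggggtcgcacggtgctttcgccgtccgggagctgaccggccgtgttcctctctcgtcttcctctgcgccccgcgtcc
*Mrpl14* (chr17:45686099-45686398): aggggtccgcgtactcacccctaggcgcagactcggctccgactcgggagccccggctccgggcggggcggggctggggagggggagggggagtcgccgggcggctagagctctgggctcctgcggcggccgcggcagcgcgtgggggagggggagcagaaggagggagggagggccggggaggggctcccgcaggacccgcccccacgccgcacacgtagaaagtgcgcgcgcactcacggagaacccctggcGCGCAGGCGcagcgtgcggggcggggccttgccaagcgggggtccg
*Mrpl12* (chr11:120484387-120484686): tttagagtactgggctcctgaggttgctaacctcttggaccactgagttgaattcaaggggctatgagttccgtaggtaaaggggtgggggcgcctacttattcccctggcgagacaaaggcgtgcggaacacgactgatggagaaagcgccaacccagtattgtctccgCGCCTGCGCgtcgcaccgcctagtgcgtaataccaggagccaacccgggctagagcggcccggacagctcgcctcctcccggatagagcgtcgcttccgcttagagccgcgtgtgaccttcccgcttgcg
*Mrps26* (chr2:130563507-130563806): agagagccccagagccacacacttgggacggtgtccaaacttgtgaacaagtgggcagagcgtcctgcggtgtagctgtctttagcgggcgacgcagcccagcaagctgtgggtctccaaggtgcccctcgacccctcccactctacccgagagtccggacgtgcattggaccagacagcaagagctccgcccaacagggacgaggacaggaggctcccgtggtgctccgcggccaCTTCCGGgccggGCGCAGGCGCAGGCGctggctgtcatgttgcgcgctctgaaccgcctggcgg
The *Mrps26* window held 3 matches, 1 ETS word and 2 NRF1 words that overlap each other. The *Mrpl12* and *Mrpl14* windows each held 1 NRF1 word, and the *Mrps6* window held none of the 3 words although it was rich in CG, with 39 CG dinucleotides against 24, 26 and 37 in *Mrps26*, *Mrpl12* and *Mrpl14*.

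A promoter was matched for 69 of the 78 genes. At least 1 of the words stood in 44 of these 69 (63.8%), against 17.8% of all 27025 genes with a promoter of the same length. The ETS word was the most frequent, in 26 genes (37.7% against 9.93% of all genes), followed by the NRF1 word in 16 (23.2% against 7.03%) and the YY1 word in 12 (17.4% against 3.19%). Among the 61 cytosolic ribosomal protein genes with a promoter, 62.3% held at least 1 word. A match is a description of letters and not a site of binding.

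Each library held between 1839621 and 4420675 reads on genes, 84273080 in all, and 0.437% to 0.493% of them fell on mitochondrial ribosomal protein genes. Of 10 neuronal markers only 5 reached 1 CPM (the read count of a gene scaled to the library size by the TMM method), with *Rbfox3*, *Syp*, *Snap25*, *Elavl3* and *Elavl4* below it, and none of 8 hypothalamic peptide genes did, while all 8 mesenchymal markers did. Summed levels per library were 85.1 to 125 CPM for the neuronal list, 0 to 2.78 CPM for the peptides and 8270 to 10757 CPM for the mesenchymal list. Astrocyte (2 of 5), microglial (2 of 4), oligodendrocyte (1 of 4) and endothelial (0 of 3) markers reached 1 CPM less often and summed to at most 52.5 CPM. The part of these cell markers in the results was not tested. In bulk RNA, fewer cells of a kind and less RNA per cell cannot be told apart.

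Because a 3′ library gives about 1 fragment per transcript, CPM can be set side by side between genes without dividing by length. Averaged over the 30 libraries, the median gene of the family stood at 54.9 CPM, with 57.7 CPM for the large subunit and 46.4 CPM for the small subunit. The levels spanned a wide range, with 14 genes above 100 CPM and 9 below 10 CPM. *Mrps6*, a small-subunit protein, was the highest at 273 CPM and ranged from 194 to 378 CPM over libraries. It was followed by *Mrpl18* (184 CPM), a large-subunit protein of the family that binds 5S rRNA in bacteria, *Mrpl12* (177 CPM), the protein of the flexible stalk, *Mrpl54* (157 CPM) and *Mrpl14* (140 CPM), a protein at the face toward the small subunit. *Mrps6* was above *Mrpl18* in 28 of 30 libraries. The next neighbours were close, since *Mrpl18* was above *Mrpl12* in 18 of 30, *Mrpl12* above *Mrpl54* in 18 of 30 and *Mrpl14* above *Mrpl17* in 17 of 30, while *Mrpl54* was above *Mrpl14* in 24 of 30.

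At the other end, *Mrps34* had 0 reads in all 30 libraries, which allows a level of up to 0.0356 CPM (3 reads of the summed total, counting error only). In the annotation its exons overlap those of *Nme3* on the same strand, which was also at 0, and those of *Mapk8ip3* on the opposite strand with 3857 reads. HTSeq-count by default leaves out reads that fall on both of a pair of overlapping genes, so the 0 does not show that the gene was silent. *Mrpl24* (115 reads over 30 libraries), *Mrpl23* (114 reads) and *Mrps36* (54 reads) were also too low to be tested at either time, *Mrps18b* (137 reads) was tested only in the fit of all libraries, and *Mrps28* (196 reads) was tested at 6 h but not at 24 h. Together with *Mrps18b* (1.79 CPM) and *Mrps28* (2.41 CPM), the lowest genes tested were *Mrpl10* (7.23 CPM), the base of the stalk that carries *Mrpl12*, *Mrpl9* (8.07 CPM), *Mrpl44* (8.31 CPM) and *Mrps33* (11.8 CPM). Thus 73 genes passed the filter on low counts at 6 h (47 large, 26 small), 72 at 24 h (47 and 25) and 74 over both times (47 and 27). *Mrpl10* and *Mrpl12* bind each other in the stalk, and their transcripts lay at opposite ends of the order of levels. Exons of the low genes *Mrpl10*, *Mrpl9*, *Mrpl44* and *Mrpl24* overlap those of a gene on the opposite strand, while *Mrpl12* has no overlap. The low genes *Mrpl23*, *Mrps36* and *Mrps33* have none either, and the high genes *Mrpl18* and *Mrpl14* have one. The part of such overlaps in the levels was not tested.

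Subunits are those of the gene names throughout, and the place of each protein in the ribosome was not checked. Summed by name, the 49 large-subunit genes gave between 2891 and 3450 CPM per library and the 29 small-subunit genes between 1340 and 1765 CPM. The ratio of large to small was narrow, 1.82 to 2.16, and its group means ran from 1.92 ± 0.0984 (SD, n = 3) at 3 µM for 24 h to 2.03 ± 0.117 in vehicle at 24 h. *Mrps6* alone made up 12.0% to 24.4% of the small-subunit sum. Without it the ratio was 2.10 to 2.67. Among the 69 genes above 10 CPM, the median coefficient of variation within a group lay between 10.4% and 15.6%, so that a difference of that size in 1 gene was within the spread of the libraries.

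**Figure D1:**
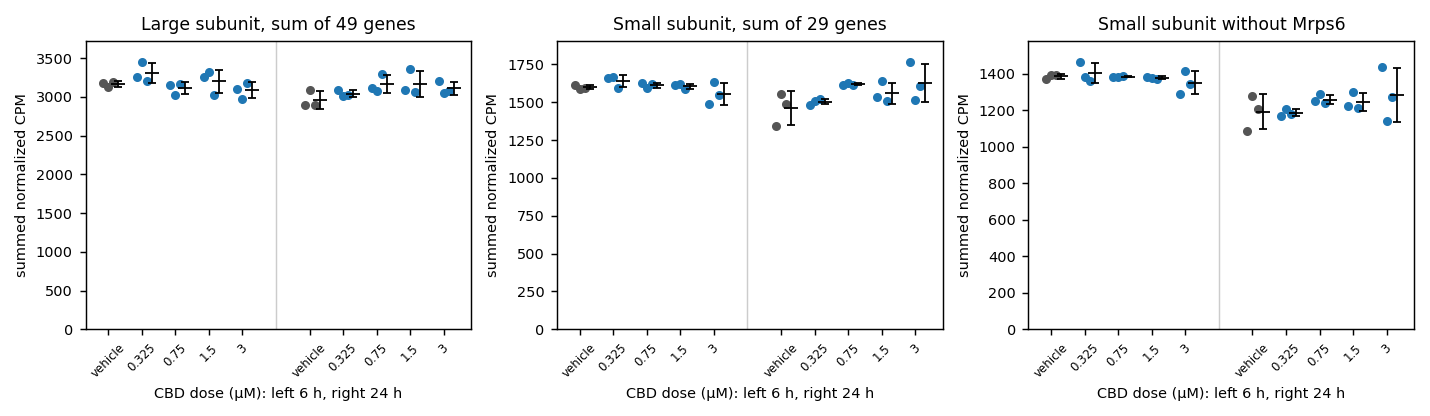
Summed TMM-normalized CPM (y axis, from 0) of the large-subunit genes, the small-subunit genes and the small-subunit genes without *Mrps6*, by CBD dose in µM (x axis, 6 h left and 24 h right of the grey line). Points are libraries (grey vehicle, blue CBD) and bars are the mean ± SD of 3. Without *Mrps6*, the vehicle libraries of 24 h (1088 to 1280 CPM) sat below those of 6 h (1372 to 1396 CPM).

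The comparison of the vehicle groups asked how the family stood in cells without CBD at the 2 harvests. Most of its genes were lower at 24 h. In the 3 vehicle libraries of 6 h the large-subunit sum was 3166 ± 35.0 CPM (SD, n = 3) and at 24 h it was 2960 ± 114 CPM (n = 3). The small-subunit sum without *Mrps6* was 1387 ± 13.04 CPM at 6 h and 1192 ± 97.1 CPM at 24 h. Neither sum overlapped between the groups, with the highest large-subunit sum of 24 h at 3092 CPM and the lowest of 6 h at 3125 CPM. Of the 74 genes tested, 56 had a lower level at 24 h, against 6633 of all 12790 genes tested. The median log2 difference was −0.19 against −0.03 over all genes tested. The median was −0.15 over 47 large-subunit genes, of which 32 were lower, and −0.26 over 27 small-subunit genes, of which 24 were lower.

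At an FDR (Benjamini-Hochberg over all genes tested, edgeR quasi-likelihood test) below 0.1, 12 genes fell and 3 rose. This was 15 of 74, against 26.7% of all 12790 genes tested, of which 14.2% fell and 12.5% rose. Whether the family differed from all genes in these shares was not tested. At an unadjusted p below 0.05 there were 21 genes (17 lower, 4 higher), against 33.0% of all genes. The 3 libraries of 24 h lay wholly below those of 6 h in 16 genes and wholly above in 3, against 15.9% and 15.8% of all genes.

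The genes that fell came from both subunits. *Mrpl9*, a large-subunit protein of low level, had 7.47, 7.78 and 19.4 CPM at 6 h and 4.31, 4.71 and 6.52 CPM at 24 h, a log2 difference of −1.20 (SE 0.396, FDR 0.0272). The groups did not overlap, but library A3 stood far above the other two of 6 h, and without it the gene did not pass. *Mrpl27*, which reaches toward the peptidyl transferase centre, had 22.8, 23.5 and 40.3 CPM at 6 h and 12.6, 15.5 and 20.96 CPM at 24 h (log2 −0.84, SE 0.308, FDR 0.0489). Here too the highest value of 6 h stood apart.
*Mrpl19* had 37.8, 37.9 and 43.9 CPM at 6 h and 18.2, 23.8 and 36.1 CPM at 24 h (log2 −0.63, SE 0.234, FDR 0.0525). *Mrpl47*, at the end of the nascent chain tunnel, had 34.7, 40.02 and 40.6 CPM and then 17.5, 24.2 and 36.1 CPM (log2 −0.56, SE 0.236, FDR 0.0892). The highest value of 24 h stood just below the 6 h range in *Mrpl19* and inside it in *Mrpl47*.

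Genes with more reads had smaller standard errors. *Mrps26*, a small-subunit protein with no bacterial counterpart and with 3 motif matches in the promoter shown above, had 99.96, 104 and 105 CPM at 6 h and 67.1, 70.4 and 82.2 CPM at 24 h (log2 −0.49, SE 0.145, FDR 0.0139). *Mrps17* had 133, 146 and 153 CPM at 6 h and 94.9, 97.8 and 114 CPM at 24 h (log2 −0.50, SE 0.162, FDR 0.0254). *Mrpl12*, the stalk protein, had 184, 206 and 233 CPM at 6 h and 126, 155 and 174 CPM at 24 h (log2 −0.45, SE 0.143, FDR 0.0212). In each of these 3 genes the groups did not overlap. *Mrps2* (−0.60, FDR 0.0228), *Mrpl15* (−0.52, FDR 0.0150), *Mrps18a* (−0.48, FDR 0.0851), *Mrpl57* (−0.47, FDR 0.0758) and *Mrps22* (−0.40, FDR 0.0850) also fell. *Mrps18a* is named for the small subunit, while its protein is found in the large subunit in structures of the mammalian mitochondrial ribosome.

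The 3 genes that rose were among the best expressed. *Mrpl14* had 111, 115 and 118 CPM at 6 h and 147, 155 and 168 CPM at 24 h (log2 0.45, SE 0.132, FDR 0.0129). *Mrps6* had 194, 204 and 244 CPM and then 253, 278 and 281 CPM (log2 0.34, SE 0.122, FDR 0.0438). *Mrpl34* had 97.5, 103 and 119 CPM and then 124, 131 and 139 CPM (log2 0.31, SE 0.132, FDR 0.0954). In each of them every library of 24 h stood above every library of 6 h. Of the 10 genes that fell and had a promoter, 7 held 1 or more of the words, and of the 3 that rose 2 did, all but *Mrps6*. In the whole family it was 44 of 69 (63.8%), so the words did not set these genes apart.

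**Figure D2:**
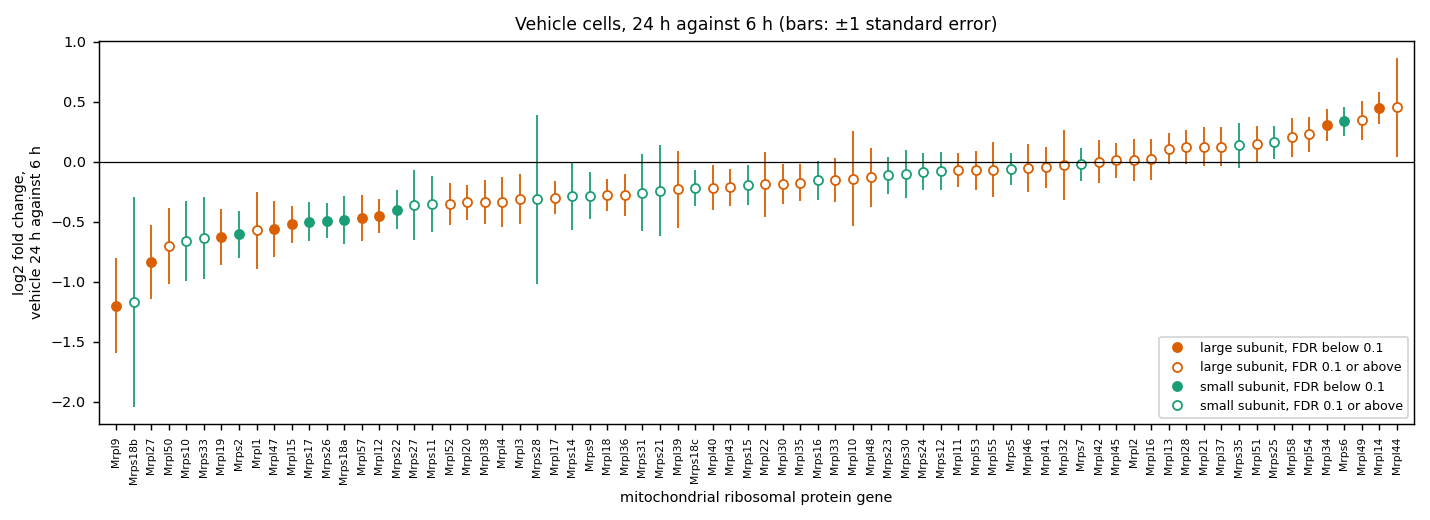
Log2 difference between vehicle at 24 h and vehicle at 6 h (y axis) for each of the 74 genes tested (x axis, ordered by the difference), with bars of 1 standard error. Orange marks the large and green the small subunit, and filled points have an FDR below 0.1. The points lie mostly below 0, with 12 filled below it and 3 above it.

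*Mrpl14*, *Mrpl15* and *Mrps26* passed under every alternative and with each library left out. *Mrpl9* and *Mrps2* did not pass without A3, *Mrps17* without A28, *Mrpl12* without A1 or A28, and *Mrps6* without A2, A3 or A30. These are the called genes with the lowest FDR. *Mrpl27*, *Mrpl19*, *Mrpl47*, *Mrps18a*, *Mrpl57*, *Mrps22* and *Mrpl34* lay nearer the threshold, with an FDR of 0.0489 to 0.0954. Their dependence on single libraries is not listed here, and they are not to be read as firmer. The number of calls depended on single libraries too. Without A28 it was 8 and without A30 it was 7, both vehicle at 24 h, and it was 9 with only the groups compared and 8 with the share of reads outside annotated genes as a covariate. That share was 17.9% to 21.4% in the vehicle libraries of 6 h and 20.9% to 22.2% in those of 24 h. The harvest time cannot be told apart from anything else that differed between the 2 sets of cultures.

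Other genes of mitochondrial translation were set beside the family. Over all 12790 genes tested 14.2% fell and 12.5% rose between the vehicle groups, and no list was tested against these shares. Both rRNAs fell between the vehicle groups, *mt-Rnr1* by 0.37 (SE 0.133, FDR 0.0442) and *mt-Rnr2* by 0.34 (SE 0.114, FDR 0.0302) on the log2 scale. Of 5 mitochondrial ribosomal proteins without the *Mrp* symbol only *Aurkaip1* fell (−0.46, FDR 0.0135), and of 10 translation factors only *Gfm1*, an elongation factor (−0.69, FDR 0.0598). Among 23 genes of assembly and rRNA modification 3 fell, *Malsu1* (−0.54, FDR 0.0248), *Ngrn* (−0.80, FDR 0.0275) and *Rcc1l* (−0.47, FDR 0.0862), and none rose. Of 4 genes of mitochondrial transcription none passed. Of 10 regulators of nuclear genes for mitochondria *Myc* (−1.89, FDR 0.0423) and *Esrra* (−1.01, FDR 0.0813) fell. *Myc* had 1.67, 2.67 and 12.5 CPM at 6 h and 0.932, 1.33 and 2.69 CPM at 24 h, so that the groups overlapped and library A3 stood far above the rest. Without A3 the log2 difference was −0.43 for *Myc* (FDR 0.784) and −0.51 for *Esrra* (FDR 0.531), and neither passed. *Gfm1* (FDR 0.223) and *mt-Rnr2* (FDR 0.176) did not pass without A3 either, *mt-Rnr1* did not without A2 (FDR 0.227), nor *Malsu1* and *Ngrn* without A30 (FDR 0.141 and 0.109), nor *Rcc1l* without A28 (FDR 0.383), while *Aurkaip1* passed with each library left out. The nuclear subunits of the respiratory chain went the other way, with 19 of 76 rising and 1 falling (median 0.10). Of 77 cytosolic ribosomal protein genes 6 rose and 12 fell (median −0.10). The difference between these lists was not tested.

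The comparison with vehicle at 6 h asked whether the family moved early. No gene of the family passed the test at any dose. Of 73 genes tested, 0 passed an FDR below 0.1 with edgeR at 0.325, 0.75, 1.5 or 3 µM, against 0.200%, 0.0749%, 0.0999% and 0.0500% of all 12012 genes. DESeq2 and limma-voom also gave 0 at each dose. At an unadjusted p below 0.05 edgeR gave 4, 3, 5 and 0 genes, against 8.80%, 7.79%, 7.91% and 7.26% of all genes. DESeq2 gave 4, 2, 4 and 0 and limma-voom 5, 2, 5 and 0. The median log2 change was −0.04, −0.04, −0.02 and −0.07, and over all genes it was −0.02, −0.02, −0.01 and −0.01.

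Over the mean of the 4 doses 0 genes passed with edgeR, DESeq2 or limma-voom, against 0.749% of all genes, and 2 had an unadjusted p below 0.05, against 10.3%. The lowest p was that of *Mrps7*, an rRNA-binding protein of the head of the small subunit. It had 61.4, 64.5 and 76.9 CPM in vehicle and 74.3 to 101 CPM in the 12 CBD libraries, a log2 change of 0.36 (SE 0.123, FDR 0.251). Its groups overlapped in the lowest CBD library, and it did not pass. *Mrpl33* (−0.33, FDR 0.413), *Mrps5* (0.19, FDR 0.562), *Mrps28* (−0.88, FDR 0.614) and *Mrpl57* (−0.27, FDR 0.627) had the next lowest p. *Mrps5*, a protein at the mRNA entrance, was tightly measured, with 98.0, 99.2 and 103 CPM in vehicle and 103 to 125 CPM with CBD.

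The contrast of 3 µM with the 3 lower doses called 0 genes of the family and 0% of all genes, and the slope over log2 dose likewise 0 and 0%. At an unadjusted p below 0.05 these contrasts held 4 and 1 genes with edgeR, against 5.19% and 4.27% of all genes. DESeq2 and limma-voom called 0 in both and had 3 and 4 genes below 0.05 in the first and 1 each in the second. The medians at 6 h turned sign with 1 vehicle library. Without A3, the median of the family at 0.325, 0.75 and 3 µM was 0.07, 0.03 and 0.04.

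The same comparison at 24 h gave small differences that leaned upward. Its 3 vehicle libraries are also those of 24 h in the vehicle comparison, where they enter with the opposite sign. Their mean family sum of 4423 CPM was the lowest of the 10 groups. The next was 4546 CPM at 0.325 µM for 24 h. The lean upward and the fall between the vehicle groups are therefore not separate observations. None of 72 genes passed an FDR below 0.1 with edgeR at 0.325, 0.75, 1.5 or 3 µM, against 0.0660%, 0.0825%, 0.0413% and 0.00825% of all 12118 genes. The family's median log2 change was 0.02, 0.09, 0.11 and 0.08, where the median of all genes was −0.01, −0.01, 0.00 and 0.01. The large-subunit medians were 0.03, 0.10, 0.08 and 0.09, and the small-subunit medians were 0.00, 0.03, 0.13 and 0.07. At an unadjusted p below 0.05 there were 2, 5, 5 and 9 genes, against 8.33%, 7.63%, 7.34% and 9.16% of all genes. All but 1 of these were higher with CBD (2, 5, 5 and 8 genes), where 3.82%, 4.07%, 3.61% and 4.79% of all genes were. DESeq2 called 0, 1, 0 and 0 genes and had 2, 5, 5 and 8 below 0.05, and limma-voom called 0 at every dose and had 2, 5, 8 and 8. The study itself, also at an FDR below 0.1, listed the mitochondrial ribosome among cellular components enriched for its genes altered at 3 µM for 24 h. By its account, 3 µM altered the fewest genes of the 24 h doses. That enrichment was not run again here, and which genes it rested on was not examined.

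**Figure D3:**
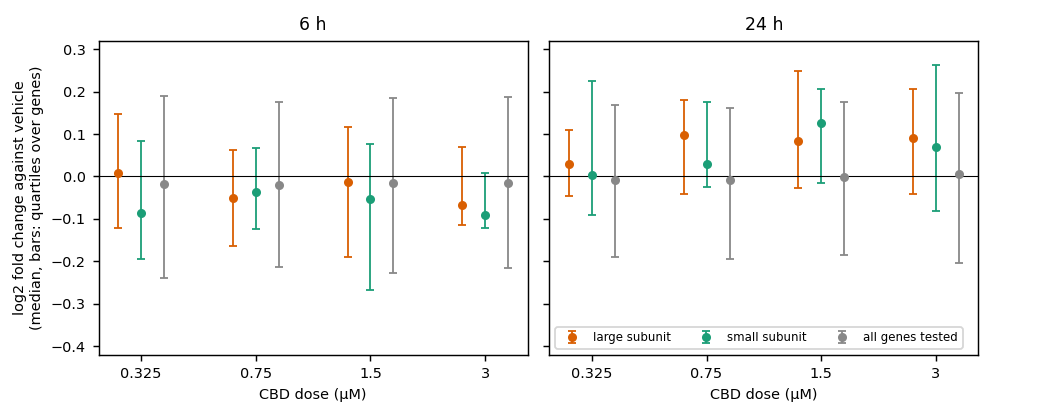
Median log2 fold change against vehicle (y axis; bars span the quartiles over genes) at each CBD dose in µM (x axis) for the large subunit, the small subunit and all genes tested, at 6 h and 24 h. The medians of both subunits at 24 h lie between 0.00 and 0.13, and the quartile ranges of the family and of all genes overlap at every dose.

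Averaged over the doses, 48 of 72 genes were higher, against 48.6% of all genes. The median was 0.07, against −0.01 over all genes. 0 passed with edgeR or limma-voom and 1 with DESeq2, against 0.107% of all genes with edgeR, and 5 were below an unadjusted p of 0.05 (all higher), against 6.73%. DESeq2 had 6 and limma-voom 7 below 0.05. The lean upward over the doses changed with a covariate in the fit. With the share of reads outside annotated genes added, the family's median over the doses was −0.02. This share was 20.9% to 22.2% in vehicle and 18.7% to 20.4% at the 3 lower doses. As these ranges did not overlap, the fit could hardly separate the share from CBD at those doses. At 3 µM, where the share was 20.8% to 21.7% and overlapped that in vehicle, the median was 0.08 with and without the covariate. Beside *Mrps6*, the lowest p were those of *Mrpl30* (log2 0.32, FDR 0.604), *Mrps7* (0.26, FDR 0.667), *Mrpl52* (0.33, FDR 0.667) and *Mrpl41* (0.28, FDR 0.727). *Mrpl41* had 27.95, 33.8 and 36.0 CPM in vehicle and 45.5, 47.6 and 48.2 CPM at 0.75 µM, but only 32.3 to 37.1 CPM at 0.325 µM. *Mrps7* had 61.6, 63.3 and 75.7 CPM in vehicle and 67.8 to 92.8 CPM with CBD, so that its groups overlapped at 24 h as at 6 h.

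*Mrps6* was the gene of the family that stood out at this time. The gene spans chr16:92058270-92112227 on the + strand of GRCm38. In vehicle at 24 h it had 253, 278 and 281 CPM. The levels were 301, 315 and 339 CPM at 0.325 µM, 344, 367 and 378 CPM at 0.75 µM, 295, 313 and 340 CPM at 1.5 µM and 331, 331 and 370 CPM at 3 µM. All 12 CBD libraries were thus above all 3 vehicle libraries, which held for 1 gene of the family and for 0.330% of all genes. There was no steady order over the doses, the highest levels being at 0.75 µM, and the slope over log2 dose was 0.02 (SE 0.0317, FDR 0.805). The log2 change was 0.23 (SE 0.106), 0.41 (SE 0.107), 0.22 (SE 0.107) and 0.35 (SE 0.107) in order of dose, with an FDR of 0.574, 0.204, 0.688 and 0.463. Averaged over the doses it was 0.30 (SE 0.0861, FDR 0.345).

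The call for *Mrps6* depended on the tool. At 0.75 µM DESeq2 gave an FDR of 0.0384 with nearly the same log2 change, 0.41, and for the mean of the doses an FDR of 0.0839. Over all alternatives the FDR at 0.75 µM ran from 0.0384 to 0.933 and the log2 change from 0.36 to 0.45. The gene also passed at 0.75 µM without library A16 (3 µM) and with only the 2 groups compared. At 6 h the 12 CBD libraries (198 to 288 CPM) overlapped the vehicle libraries (194 to 244 CPM), and the mean change was 0.07 (SE 0.113, FDR 0.884). The mean CBD change at 24 h minus that at 6 h was 0.23 (SE 0.136, FDR 0.808 by the edgeR quasi-likelihood test), so that the response of *Mrps6* was not shown to differ between 6 h and 24 h.

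*Mrps6* shares its locus with *Slc5a3*, the inositol transporter, which lies on the same strand and whose exon overlaps *Mrps6* exons in the annotation. Over the 30 libraries 23075 reads were counted for *Mrps6* and 7026 for *Slc5a3*. *Slc5a3* had 89.2, 102 and 104 CPM in vehicle at 24 h and 80.3 to 118 CPM in the CBD libraries, a mean log2 change of −0.05 (SE 0.106, FDR 0.978). Between the vehicle groups it did rise, from 51.7, 60.8 and 68.0 CPM at 6 h (log2 0.70, SE 0.143, FDR 0.000605). How reads at this locus were divided between the genes was not tested.

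**Figure D4:**
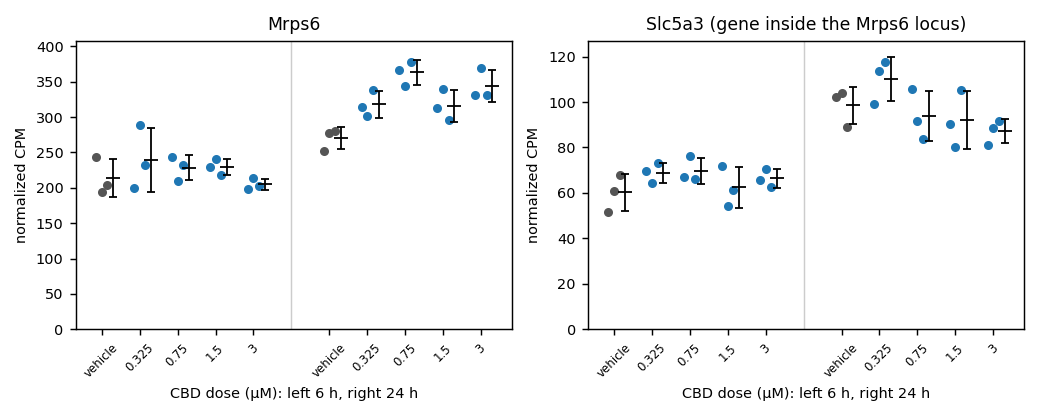
TMM-normalized CPM (y axes, from 0) of *Mrps6* and of *Slc5a3*, the gene in its locus, by CBD dose in µM (x axes, 6 h left and 24 h right of the grey line). Points are libraries (grey vehicle, blue CBD) and bars are the mean ± SD of 3. At 24 h every CBD library of *Mrps6* (295 to 378 CPM) is above every vehicle library (253 to 281 CPM), and the groups of *Slc5a3* overlap.

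Within the family and across the 30 libraries, the genes whose log2 CPM was most like that of *Mrps6* were *Mrpl34* (Pearson r 0.699), *Mrpl49* (0.676) and *Mrps25* (0.669). With the mean of each time removed, r was 0.340, 0.179 and 0.522, and *Mrpl30* (0.588), *Mrpl41* (0.588) and *Mrpl12* (0.561) came first, so that the order depended on the times. These are descriptions, since the libraries share groups, times and scaling.

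The contrast of 3 µM with the 3 lower doses at 24 h was the CBD contrast with most calls in the family, the slope over dose having 1. It was chosen with earlier results of these data known, in which 3 µM stood apart at 24 h. Its calls, in the family and in all genes, therefore do not come from a split of the doses fixed beforehand. Of 72 genes 5 passed, 2 higher and 3 lower at 3 µM, against 10.5% of all genes, of which 6.36% were higher and 4.16% lower. At an unadjusted p below 0.05 there were 10 (4 higher, 6 lower), against 21.6%. The difference between the family and all genes in this share was not tested. The median was 0.06 over the family and 0.01 over all genes.

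*Mrpl22*, which lines the exit tunnel, had 4.85, 12.3 and 14.7 CPM at 3 µM. It had 19.5 to 22.1 CPM at 0.325 µM, 13.5 to 22.2 CPM at 0.75 µM and 15.7 to 17.7 CPM at 1.5 µM, a log2 difference of −0.78 (SE 0.249, FDR 0.0590). The values of 3 µM and 0.75 µM overlapped, vehicle had 12.5, 16.5 and 16.6 CPM, and 3 µM did not differ from it by the test (FDR 0.598). *Mrpl49* had 44.1, 47.4 and 55.2 CPM at 3 µM and 55.1 to 77.4 CPM at the lower doses, so that only its highest value reached their range (log2 −0.40, SE 0.128, FDR 0.0578). *Mrpl53* had 58.2, 69.7 and 82.7 CPM at 3 µM and 83.9 to 104 CPM at the lower doses, so that the groups did not overlap (log2 −0.38, SE 0.118, FDR 0.0529). *Mrpl49* and *Mrpl53* are large-subunit proteins with no bacterial counterpart.

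Of the 2 genes that were higher at 3 µM, *Mrps18a* had 44.9, 67.1 and 75.6 CPM there and 32.5 to 51.2 CPM at the lower doses (log2 0.46, SE 0.150, FDR 0.0640). Its groups overlapped. *Mrpl28* had 133, 136 and 152 CPM at 3 µM and 99.0 to 134 CPM at the lower doses, with the highest of the lower doses just above the lowest of 3 µM (log2 0.29, SE 0.106, FDR 0.0984). The slope over log2 dose called 1 gene, *Mrpl22*, at −0.27 per doubling of the dose (SE 0.0836, FDR 0.0977), against 3.13% of all genes, and 11 were below an unadjusted p of 0.05 (8 upward, 3 downward), against 16.5%.

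These calls rested on few libraries. Each of the 5 genes failed the test without A16, *Mrpl49* also without A17, *Mrpl53* without A18, *Mrpl22* without A18 or A24, and *Mrps18a* without A18, A23 or A26. *Mrpl28*, with the highest FDR, failed without any of A18, A19, A21 to A24, A26 to A28 and A30. Leaving out 1 of the 3 µM libraries gave 0 calls without A16, 8 without A17 and 1 without A18 in the contrast of 3 µM with the lower doses, and leaving out A23, A24 or A26 gave 3. The share of reads outside annotated genes moved with this contrast, at 20.8% to 21.7% at 3 µM and 18.7% to 20.4% at the lower doses. With it in the fit 0 genes passed. As these ranges did not overlap, the fit could hardly separate the share from the dose. The lost calls therefore do not assign the differences to either. The part of the share in the result was not tested further. For the slope the count was 0 without each of A16, A18 to A26 and A30, 5 without A17 and 2 without A27.

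The mitochondrial rRNAs also differed between the doses at 24 h. The share of reads on the whole mitochondrial genome, which includes them, was 8.43% to 9.82% in vehicle. It was 7.10% to 7.56%, 7.38% to 7.82%, 7.52% to 7.90% and 7.42% to 8.11% in order of dose. The part of the rRNAs in that share was not tested. *mt-Rnr1* had 6869, 7424 and 8101 CPM in vehicle, 4894 to 7033 CPM at 0.325 µM, 5228 to 5548 CPM at 0.75 µM, 5062 to 5675 CPM at 1.5 µM and 5942, 8080 and 8094 CPM at 3 µM. The levels at 0.75 and 1.5 µM were wholly below vehicle, which held for 861 and 779 of all 12118 genes. Those of 3 µM were spread across the vehicle range. Against the lower doses *mt-Rnr1* was higher at 3 µM (log2 0.42, SE 0.0989, FDR 0.0146), while no dose passed against vehicle (log2 −0.33, −0.47, −0.49 and −0.01, FDR 0.466, 0.216, 0.335 and 0.987). *mt-Rnr2* had 14947, 17098 and 17863 CPM in vehicle and 11948 to 12643 CPM at 0.75 µM (log2 −0.45, SE 0.0985, FDR 0.112), and did not pass at any dose or in the contrast of 3 µM with the lower doses (log2 0.17, FDR 0.222). The method reads the ends of polyadenylated transcripts, and where the reads on the 2 rRNAs began was not examined. These values need not follow the full amount of either rRNA.

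**Figure D5:**
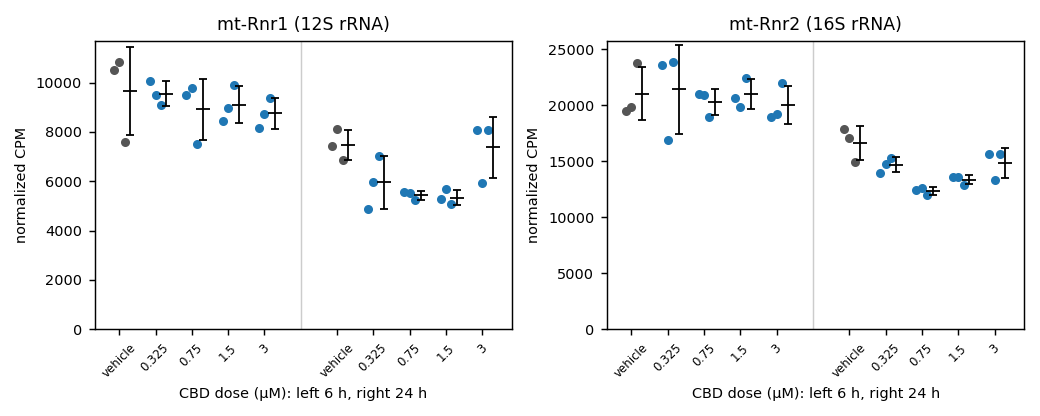
TMM-normalized CPM (y axes, from 0) of the 2 rRNAs of the mitochondrial ribosome by CBD dose in µM (x axes, 6 h left and 24 h right of the grey line). Points are libraries (grey vehicle, blue CBD) and bars are the mean ± SD of 3. At 24 h the *mt-Rnr1* libraries of 0.75 and 1.5 µM (5062 to 5675 CPM) are below the vehicle libraries (6869 to 8101 CPM).

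In the lists of mitochondrial translation and its regulators, the contrast of 3 µM with the lower doses called 1 of 10 translation factors, *Mtfmt*, which formylates the initiator tRNA (−1.15, FDR 0.0604), and 1 of 21 assembly genes, *Mpv17l2* (0.48, FDR 0.0588). It also called 1 of 4 genes of mitochondrial transcription, *Tfb2m*, a transcription factor of mitochondrial DNA (−1.40, FDR 0.0711), and none of 5 ribosomal proteins without the *Mrp* symbol or of 9 regulators. Of the respiratory chain genes 1 of 76 was higher and 14 were lower, and of the 77 cytosolic ribosomal protein genes 8 were higher and 9 lower, against the 10.5% of all genes. The difference between these lists was not tested. Without A16, *Mtfmt* (FDR 0.422), *Mpv17l2* (FDR 0.102), *Tfb2m* (FDR 0.175) and *mt-Rnr1* (FDR 0.143) did not pass. With the covariate *mt-Rnr1* did not pass either (log2 0.50, SE 0.190, FDR 0.294), its standard error being larger than without it. *Lrpprc*, which stabilises mitochondrial mRNA, was called against vehicle at 0.75 µM for 24 h, with 271, 305 and 307 CPM against 163, 192 and 217 CPM (log2 0.61, SE 0.133, FDR 0.0965). It passed under 12 of 23 alternatives and failed without, among others, A24 (FDR 0.550) or A28 (FDR 0.345). The other genes of mitochondrial translation, its assembly, transcription and regulators were not called against vehicle at any dose. At 0.325 µM for 6 h, 1 of 77 cytosolic ribosomal protein genes and 1 of 75 respiratory chain genes rose, where 0.200% of all genes were called.

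The mean CBD change at 24 h minus the mean CBD change at 6 h was above 0 in 52 of 74 genes, against 52.3% of all genes. Its median was 0.10 against 0.02 over all genes. This difference uses the same vehicle libraries as the comparisons above and is not separate from them. With edgeR 0 genes passed, as with DESeq2 and limma-voom, against 0.235% of all genes. At an unadjusted p below 0.05 there were 2, *Mrps22* (log2 0.42) and *Mrpl33* (0.44), with each of the 3 tools counting 2, against 6.52% of all genes with edgeR.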

How the data were processed

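Expression was measured in 30 libraries of QuantSeq 3′ mRNA-Seq, grouped by dose and time from the labels. The authors checked reads with FastQC 0.11.9, trimmed them with Flexbar, mapped them to GRCm39 with STAR 2.7.5c and made the deposited counts, whole reads per Ensembl gene, with HTSeq-count 1.99.2. The strand setting of the counting is not given in the sources used here, so reads of genes that overlap on opposite strands may not be told apart. Lines of reads outside genes stayed out of the library sizes and tests, and their share of 17.7% to 22.2% per library was used as a covariate in an alternative.

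From the counts, symbols, gene types and gene positions were added by gene identifier from GENCODE M21 (GRCm38), which named 51948 of 56941 genes, and promoters from RefSeq (GRCm38.p6). Tests were run in R 4.3.3 with edgeR 4.0.16 (filterByExpr on groups, TMM scaling, quasi-likelihood F-test), 15 libraries per time and 1 mean per group. All 30 libraries were fitted together for the vehicle groups and for the difference between the times. Benjamini-Hochberg adjustment ran over every gene in a contrast and a gene was called at an FDR below 0.1. The log2 CPM behind the likeness to *Mrps6* used a prior count of 2. The fit was tested on simulated data.

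Values are given for *Mrps6*, for members that passed by edgeR or DESeq2, for the 5 lowest p in the mean of the doses at each time, in 3 µM against the lower doses and between the vehicle groups, for the 5 highest and lowest levels, for untested members and for the 3 most like *Mrps6*. The members and the lists of related genes and cell markers were chosen with earlier results of these data known. So was the contrast of 3 µM with the lower doses, which was run at both times. Alternatives were DESeq2 1.42.0, limma-voom 3.58.1, RLE scaling, no filter or at least 10 counts in every library, only the groups compared, the mitochondrial genome left out, the covariate and each library left out. For the lists of related genes these alternatives were added after the values were seen. Counts of paired libraries of a group differed by more than sampling noise in all 30 pairs (chi-square per gene 2.17 to 12.0), so none was counted once.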

Additional observations from a re-analysis of the deposited data

How the results depend on the processing

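Among the recomputed counts of calls, 364 stayed within 1.5 times the reported count and 31 moved. Counts that were 0 and stayed at 0 are among the 364. Only the vehicle comparison and, at 24 h, the slope and the contrast of 3 µM with the lower doses had calls with edgeR. With DESeq2, 1 gene (*Mrps6*) was called at 0.75 µM and 1 for the mean of the doses at 24 h, in place of 0. With only the groups compared, 1 was called at 0.75 µM for 24 h, and 9 in place of 15 between the vehicle groups. With the share of reads outside annotated genes as a covariate, some counts fell. They were 0 in place of 5 for 3 µM against the lower doses at 24 h and 0 in place of 1 for the slope at 24 h. Between the vehicle groups the count was 8 in place of 15. The share did not overlap between 3 µM and the lower doses at 24 h, so that fit could hardly separate it from the dose. With no filter on low counts the slope at 24 h gave 3. With each library left out in turn, the counts ranged from 0 to 8 for 3 µM against the lower doses at 24 h, from 0 to 5 for the slope at 24 h, from 7 to 15 between the vehicle groups, and from 0 to 1 at 0.75 µM and at 3 µM for 24 h (1 without A16 and 1 without A17). For all contrasts at 6 h, and for the difference between the times, the count was 0 under every alternative run.

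Single genes were followed only for *Mrps6* in every contrast and for members that edgeR or DESeq2 called in that contrast. Among these the direction turned once, and the direction of the other members was not followed. The log2 change of *Mrps6* at 3 µM for 6 h was −0.06 and ran from −0.121 to 0.0504 with each library left out, the highest without the vehicle library A1, and passed in none. Of the other recomputed changes of single genes, 939 kept their direction and side of the threshold, 120 no longer passed and 4 newly passed. For medians of the family or a subunit, 17 moved by more than the spread between libraries. The causes were not tested. No paired analysis was possible because the titles number the libraries from 1 to 30 and no number is shared between groups. Levels below about 10 CPM rest on few reads per library, as the wide intervals of *Mrpl9* and *Mrps28* show.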
